A study of Mus musculus with 22 samples.

Results

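Fibro-adipogenic progenitors are the mesenchymal cells that lie between the fibers of skeletal muscle, and 9 genes commonly used to mark them were followed here, namely Pdgfra, Ly6a, Cd34, Dcn, Lum, Gsn, Dpt, Pi16 and Clec3b. Every array probe whose platform annotation gives one of these symbols was taken, which found 14 probes for 8 of the 9 genes, among 18524 genes and 38563 probes. No probe carries the symbol Ly6a, the gene of the surface antigen Sca-1, so Ly6a is not analysed here. Dcn has 4 probes, Pdgfra, Lum and Gsn have 2 each, and Dpt, Cd34, Pi16 and Clec3b have 1 each.

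The arrays came from the gastrocnemius of C57BL/6N males, 8 to 12 weeks old and titled non-diabetic, whose femoral artery had been removed from 1 hindlimb, so that every muscle in both groups was ischemic. On day 5 after surgery the mice received 1 intraperitoneal injection of 12 mg/kg of a locked nucleic acid (LNA) oligonucleotide, directed either against the microRNA miR-210 (ANTI-210) or with a scrambled sequence (SCR), and the muscle was taken on day 7. Each group holds 11 mice with 1 array each, and there was no non-ischemic or uninjected muscle among the arrays. The oligonucleotide was given to the whole animal, so the treatment was not restricted to any cell type of the muscle.

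Fibro-adipogenic progenitors carry the receptor PDGFRα and secrete much of the collagen and proteoglycan of the muscle's connective tissue. After injury they expand, support the satellite cells that rebuild fibers, and are then cleared in a process in which macrophages take part. They can also turn into adipocytes or into matrix-producing fibroblasts. Muscle fibroblasts are not uniform: Pi16 and Cd34 are known from a population found in many tissues that is regarded as progenitor-like, while Lum, Dcn and Dpt encode proteins of the extracellular matrix.

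The microRNA blocked in these mice is induced by low oxygen, and its mature strand is shown because it defines the treatment. It comes from chr7:141221407-141221428 on the minus strand of GRCm38.p6 (RefSeq), and the capitals mark the seed, bases 2 to 8, by which a microRNA pairs with its targets. Its own level was not analysed here.
mmu-miR-210-3p: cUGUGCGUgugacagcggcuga

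RefSeq promoters, from 250 bases before to 50 bases after an annotated start on GRCm38.p6, were held for 5 of the 8 measured genes, namely Pdgfra, Dpt, Cd34, Pi16 and Gsn, the last with 3 starts. Those of Pdgfra (chr5:75152001-75152300), Dpt (chr1:164796413-164796712) and Pi16 (chr17:29318632-29318931), all on the plus strand, are shown because Pdgfra and Dpt varied together over the mice and Pi16 varied against them. The capitals mark matches to any of 7 short motifs searched on both strands.
Pdgfra: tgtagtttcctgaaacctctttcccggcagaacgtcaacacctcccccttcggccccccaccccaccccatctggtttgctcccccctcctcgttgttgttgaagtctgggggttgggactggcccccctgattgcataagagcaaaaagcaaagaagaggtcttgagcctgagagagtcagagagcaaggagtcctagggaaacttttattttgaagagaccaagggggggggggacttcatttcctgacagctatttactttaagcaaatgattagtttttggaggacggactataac
Dpt: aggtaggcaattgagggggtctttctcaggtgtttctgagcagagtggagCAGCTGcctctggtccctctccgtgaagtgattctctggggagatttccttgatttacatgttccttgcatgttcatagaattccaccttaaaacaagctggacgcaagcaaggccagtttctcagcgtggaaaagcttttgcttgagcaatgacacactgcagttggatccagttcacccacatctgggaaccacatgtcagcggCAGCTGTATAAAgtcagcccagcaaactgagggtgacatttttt
Pi16: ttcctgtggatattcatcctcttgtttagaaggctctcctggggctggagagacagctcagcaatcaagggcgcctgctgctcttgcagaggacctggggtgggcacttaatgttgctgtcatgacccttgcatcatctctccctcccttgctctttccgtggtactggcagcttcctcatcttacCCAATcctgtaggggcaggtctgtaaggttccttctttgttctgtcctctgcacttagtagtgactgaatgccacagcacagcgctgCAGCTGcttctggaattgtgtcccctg

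The Dpt promoter held the TATA box TATAAA, found in 13.6% of 32851 promoters of the same length, with its first base at position +13 from the annotated start. It also held the E-box CAGCTG (16.3% of promoters) at -200 and at +7, the latter directly before the TATAAA. The Pi16 promoter held the CCAAT box CCAAT (37.4% of promoters) at -64 and CAGCTG at +24. The Pdgfra and Cd34 promoters held none of the 7 motifs, and the GC box GGGCGG (35.7% of promoters) was found among these genes in Gsn alone. The hypoxia response element core, searched as ACGTG alone (19.6% of promoters), the AP-1 site TGANTCA (7.81%) and the SMAD element CAGACA (21.0%) matched none of these promoters. Other forms of these motifs, such as GCGTG for the hypoxia core, were not searched. Base composition differed little between the shown promoters, at 51% GC for Pdgfra, 48.7% for Dpt and 53.3% for Pi16, against a median of 52.7% over all promoters. Lum lies between Dcn and Kera in the order of protein-coding genes on chromosome 10, so 2 of the markers are neighbors in the genome.

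All values below are log2 intensities as the authors normalized them, and they ran from 4.35 to 15.4 over the arrays. Most probes sat low, 62.6% of them with a mean under 6, and a mean under 6 is called near the floor here. Of the 14 marker probes, 12 had a mean of 6 or more, and the second probes of Pdgfra (mean 4.99) and of Gsn (5.44) were near the floor. A gene is described by the brightest of its probes, taken by the mean of the 22 arrays, and by that probe all 8 genes were above the floor. A principal component holding 7.31% of the variance separated the mice with replicate numbers 1 to 3 (scores -24.9 to -14.9) from those with numbers 4 to 11 (-6.06 to 21.95) in both groups. The labels name no batch, so the marker comparisons are also given within these sets of numbers. The first component, with 63.6% of the variance, ran with Pdgfra: its scores were 12.2 to 85.3 in the 9 mice with the highest Pdgfra and -53.2 to -16.2 in the other 13. Nothing in the labels says that same-numbered mice belong together. The correlation between arrays was between 0.947 and 0.997, and no 2 arrays held identical values.

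The question put to these genes was whether blocking miR-210 during regeneration changed the level of progenitor markers in the muscle. None of the 8 measured markers passed an unadjusted p of 0.05 in the limma test, the threshold named in the study's methods, while 3.47% of all genes did (642 of 18524). By direction, 1.45% of all genes were called higher and 2.01% lower with ANTI-210. Of the 14 probes, 1 passed, a second probe of Dcn, against 3.41% of all probes. Every marker probe had an adjusted p of 1 after Benjamini-Hochberg adjustment over all probes. The mean was higher with ANTI-210 for 6 of the 8 markers and lower for Clec3b and Pi16, and the median difference over the 8 was 0.07 against -0.0036 over all genes. In muscle homogenate, fewer cells of a type and less RNA per cell cannot be told apart.

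**Figure D1:**
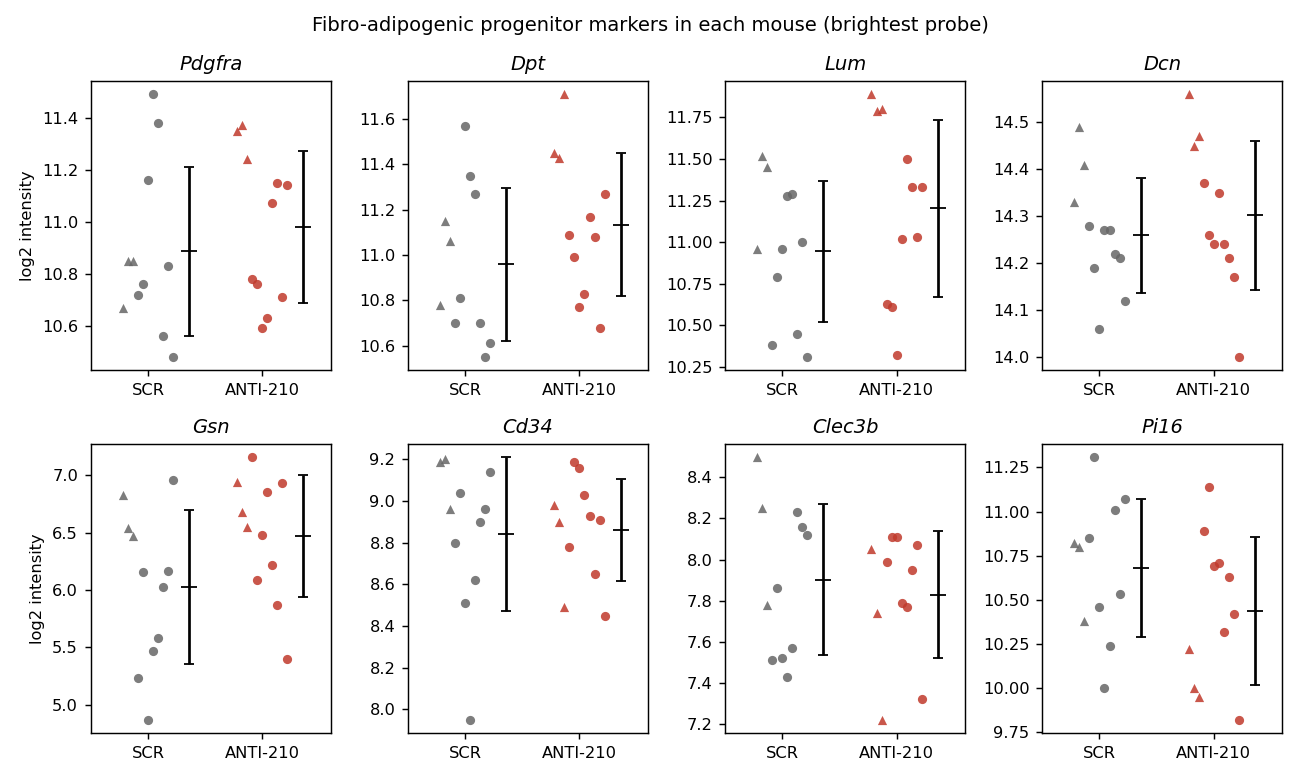
Log2 intensity (vertical axis, a scale for each gene) of the brightest probe of each marker in the 11 SCR mice (gray) and the 11 ANTI-210 mice (red). Triangles are replicate numbers 1 to 3, circles are numbers 4 to 11, and the bar is the mean ± SD. The groups overlapped for all 8 genes.

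Pdgfra encodes the receptor tyrosine kinase for platelet-derived growth factor by which these cells are usually recognized in sections. It ran from 10.48 through a median of 10.83 to 11.49 in SCR mice and from 10.59 through 11.07 to 11.37 in ANTI-210 mice. The ANTI-210 values lay wholly inside the range of the SCR values. The difference was 0.09 ± 0.13 (SE, n = 11 per group, 95% interval -0.17 to 0.36, limma p = 0.467). The other probe of Pdgfra, near the floor, varied by 0.45 over all mice and did not follow the first (r = -0.07).

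The ligands and the sister receptor of the family were read beside it. None of the 5 genes Pdgfa, Pdgfb, Pdgfc, Pdgfd and Pdgfrb passed the test. Pdgfc, a ligand of PDGFRα, differed by 0.20 (p = 0.445) and Pdgfa by 0.03 (p = 0.444), while Pdgfd was near the floor.

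Among the matrix genes, Dpt encodes dermatopontin, a small protein that binds collagen and decorin. It ran from 10.55 through 10.81 to 11.57 in SCR mice and from 10.68 through 11.09 to 11.71 in ANTI-210 mice. The groups overlapped, with 9 of 11 ANTI-210 mice above the SCR median. The difference was 0.17 ± 0.14 (SE, n = 11 per group, 95% interval -0.11 to 0.46, limma p = 0.210).

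Lum encodes lumican, a small leucine-rich proteoglycan that spaces collagen fibrils. It ran from 10.31 through 10.96 to 11.52 in SCR mice and from 10.32 through 11.33 to 11.89 in ANTI-210 mice. The lowest mice of both groups were level, and 3 ANTI-210 mice lay above every SCR mouse. The difference was 0.26 ± 0.20 (SE, n = 11 per group, 95% interval -0.15 to 0.67, limma p = 0.204). The other Lum probe gave 0.22 (p = 0.155) and followed the first over the mice (r = 0.853).

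Dcn encodes decorin, the proteoglycan that decorates collagen fibrils and binds TGF-β. Its brightest probe ran from 14.06 through 14.27 to 14.49 in SCR mice and from 14.00 through 14.26 to 14.56 in ANTI-210 mice. It varied by 0.56 in all, close to the top of the array's range, and differed between the groups by 0.04 ± 0.06 (SE, n = 11 per group, limma p = 0.479). The 4 probes of Dcn did not behave alike.

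The second probe of Dcn was the only marker probe past the threshold. It ran from 11.52 through 11.93 to 12.41 in SCR mice and from 11.91 through 12.21 to 12.77 in ANTI-210 mice. Of the SCR mice, 4 lay below every ANTI-210 mouse, and 3 ANTI-210 mice lay above every SCR mouse. The difference was 0.28 ± 0.13 (SE, n = 11 per group, 95% interval 0.01 to 0.56, limma p = 0.0454, adjusted p = 1). By set, it was 0.50 in replicate numbers 1 to 3 (exact p = 0.1) and 0.20 in numbers 4 to 11 (exact p = 0.126). The dimmest probe differed by 0.43 (p = 0.0567) and the third by -0.01 (p = 0.902). Over the mice the second and the dimmest probes followed the brightest (r = 0.703 and 0.705), whereas the third did not (r = -0.08). For the second and the dimmest, r was 0.335 and 0.377 within numbers 4 to 11 and 0.790 and 0.673 within numbers 1 to 3.

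**Figure D2:**
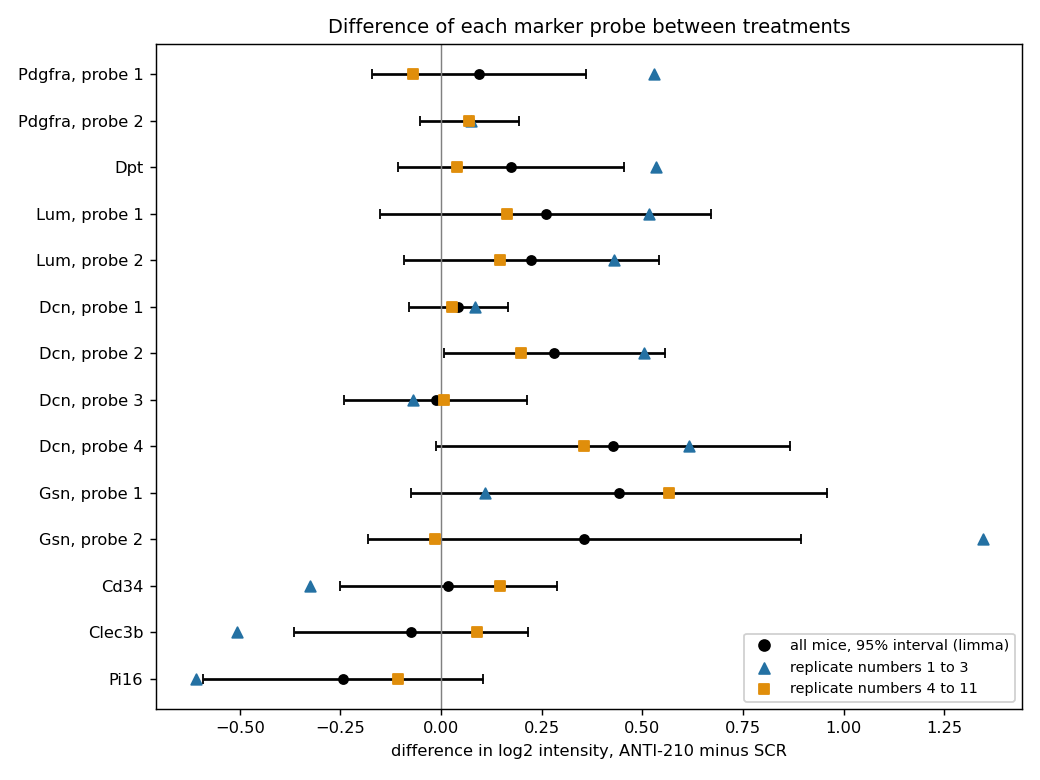
Difference in log2 intensity, ANTI-210 minus SCR (horizontal axis), for each of the 14 marker probes (vertical axis, numbered from the brightest). Black points are all mice with the 95% interval from limma, blue triangles are replicate numbers 1 to 3 and orange squares are numbers 4 to 11. The interval leaves out 0 for the second Dcn probe (difference 0.28) and includes it for the other 13.

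Gsn encodes gelsolin, an actin-severing protein that is also secreted into plasma. It ran from 4.87 through 6.16 to 6.96 in SCR mice and from 5.40 through 6.55 to 7.16 in ANTI-210 mice, so many of its values were near the floor. Its difference was the widest of the 8 markers, 0.44 ± 0.25 (SE, n = 11 per group, 95% interval -0.08 to 0.96), with the smallest p among them (limma p = 0.0902). Its other probe, near the floor, differed by 0.36 (limma p = 0.182). The call of Gsn turned with the treatment of its probes. The mean of both probes differed by 0.40 (limma p = 0.00539), although they did not follow each other over the mice (r = -0.333). By its brightest probe, Gsn also passed without SCR replicate 1 (0.52, p = 0.0482), without SCR replicate 11 (0.54, p = 0.0398) or without ANTI-210 replicate 11 (0.55, p = 0.0314).

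Among the surface and secreted markers, Cd34 encodes a sialomucin that is also found on endothelial cells. It ran from 7.95 through 8.96 to 9.20 in SCR mice and from 8.45 through 8.91 to 9.19 in ANTI-210 mice. The lowest mouse, SCR replicate 7, stood apart from the rest, and the difference of 0.02 ± 0.13 (SE, n = 11 per group, 95% interval -0.25 to 0.29, limma p = 0.890) became -0.07 without it. Of the 12 genes of an endothelial list, 6 were higher with ANTI-210 and none lower, against 1.45% and 2.01% of all genes, and Cd34 did not pass. None of the 6 passed after adjustment over all probes. The list was drawn up with earlier results of these data known, so its count is no independent evidence of direction. That count was 4 with each array centered on its median, Esam and Tek passed in 7 of the 22 fits that left out a mouse, and the mean of the list differed by 0.33 in numbers 1 to 3 and by 0.09 in numbers 4 to 11.

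Clec3b encodes tetranectin, a plasminogen-binding protein of the extracellular space. It ran from 7.43 through 7.86 to 8.50 in SCR mice and from 7.22 through 7.95 to 8.11 in ANTI-210 mice. The top of its range was SCR: 5 SCR mice lay above every ANTI-210 mouse and 2 ANTI-210 mice lay below every SCR mouse. The difference was -0.07 ± 0.14 (SE, n = 11 per group, 95% interval -0.36 to 0.22, limma p = 0.604).

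Pi16 encodes peptidase inhibitor 16. It ran from 10 through 10.80 to 11.31 in SCR mice and from 9.82 through 10.42 to 11.14 in ANTI-210 mice. Of the ANTI-210 mice, 2 of 11 were above the SCR median, yet the ranges overlapped over most of their length. The difference was -0.24 ± 0.17 (SE, n = 11 per group, 95% interval -0.59 to 0.10, limma p = 0.159). When limma's array weights were used, which give less weight to arrays that fit the model poorly, Pi16 (-0.34, p = 0.0398) and Dpt (0.27, p = 0.0382) passed, as did 10.4% of all genes.

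The markers were not quiet genes in this muscle. Their median difference in size was 0.13, against 0.07 over the 8828 genes with a mean of 6 or more, and their median SD within a group was 0.33, against 0.28 over those genes.

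Within replicate numbers 1 to 3, the values of the 2 groups did not overlap for 4 of the 8 markers, where 38.1% of all genes (7060) did not overlap either. With 3 mice against 3, an exact permutation test cannot go below p = 0.1. Pdgfra was 10.67, 10.85 and 10.85 in the SCR mice and 11.35, 11.37 and 11.24 in the ANTI-210 mice, a difference of 0.53 (exact p = 0.1). Dpt was 10.78, 11.15 and 11.06 against 11.45, 11.43 and 11.71, a difference of 0.53 (exact p = 0.1).

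These 2 genes and Lum were higher in every ANTI-210 mouse of the set. Lum was 10.96, 11.52 and 11.45 in the SCR mice and 11.89, 11.79 and 11.80 in the ANTI-210 mice, a difference of 0.52 (exact p = 0.1). Pi16 ran the other way, at 10.82, 10.80 and 10.38 against 10.22, 10 and 9.95, a difference of -0.61 (exact p = 0.1). Clec3b (-0.51) and Cd34 (-0.33) were lower on average with overlapping values (exact p = 0.2 for each). A limma fit of these 6 arrays, added after seeing the data, called 34.7% of all genes (6420) and 4 of the 8 markers, namely Pdgfra (p = 3.1e-04, adjusted p = 0.0198), Dpt (p = 0.00498, adjusted p = 0.0421), Pi16 (p = 0.0049, adjusted p = 0.0418) and Lum (p = 0.0142, adjusted p = 0.0739).

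Within replicate numbers 4 to 11, with 8 mice against 8, the differences were smaller in size for each of these 6 genes. Pdgfra differed by -0.07 (exact p = 0.665), Dpt by 0.04 (exact p = 0.807) and Lum by 0.16 (exact p = 0.429). Pi16 differed by -0.11 (exact p = 0.626), Clec3b by 0.09 (exact p = 0.561) and Cd34 by 0.15 (exact p = 0.402). By its brightest probe, Gsn was the exception among the 8, with 0.11 in numbers 1 to 3 (exact p = 0.5) and 0.57 in numbers 4 to 11 (exact p = 0.0934). Its other probe, near the floor, differed by 1.35 in numbers 1 to 3 (exact p = 0.1) and by -0.015 in numbers 4 to 11 (exact p = 0.966). By limma in this set no marker passed, where 2.53% of all genes did. Whether a difference was unequal between the sets was not tested.

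The macrophage genes were read beside these values. The mean of a macrophage list (9 of 10 genes measured, each centered on its mean over mice) was -0.41, -0.09 and -0.23 in SCR mice 1 to 3 and 0.33, 0.28 and 0.84 in ANTI-210 mice 1 to 3, and the groups differed by 0.05 in numbers 4 to 11. Over all mice it ran from -1.22 to 1.18 in SCR and from -0.69 to 0.95 in ANTI-210, no gene of the list passed the test, and Itgam was near the floor. The part of these cells in the marker differences was not tested.

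The second comparison was among the mice, and asked whether the 8 markers varied together from muscle to muscle. They did not vary as 1 group. Dpt followed Pdgfra most closely of the 7 other markers over the 22 mice (Pearson's r = 0.845, permutation p = 1e-05, the smallest that 100000 permutations can give, adjusted p = 7e-05 over 7 relations), with a Spearman's rho of 0.850 (p = 1e-05, adjusted p = 7e-05). Lum also followed it (r = 0.770, p = 6e-05, adjusted p = 1.4e-04, rho = 0.746, p = 1.3e-04, adjusted p = 3.03e-04). Against these, Pi16 was lower where Pdgfra was higher (r = -0.788, p = 4e-05, adjusted p = 1.4e-04, rho = -0.758, p = 7e-05, adjusted p = 2.45e-04).

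Cd34 and Clec3b were on the side of Pi16. For Cd34 r was -0.695 (p = 2e-04, adjusted p = 3.5e-04) and rho was -0.597 (p = 0.0039, adjusted p = 0.00546). For Clec3b r was -0.610 (p = 0.00276, adjusted p = 0.00386) and rho was -0.623 (p = 0.0025, adjusted p = 0.00438).

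By their brightest probes, Dcn and Gsn showed no relation with Pdgfra that passed. The brightest Dcn probe varied little, by 0.56 over all mice. The other probes of these genes, which did not all follow the brightest, were not tested against Pdgfra. For Dcn r was 0.216 (p = 0.332, adjusted p = 0.332) and rho was 0.278 (p = 0.211, adjusted p = 0.211). For Gsn r was -0.360 (p = 0.0985, adjusted p = 0.115) and rho was -0.312 (p = 0.156, adjusted p = 0.182).

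**Figure D3:**
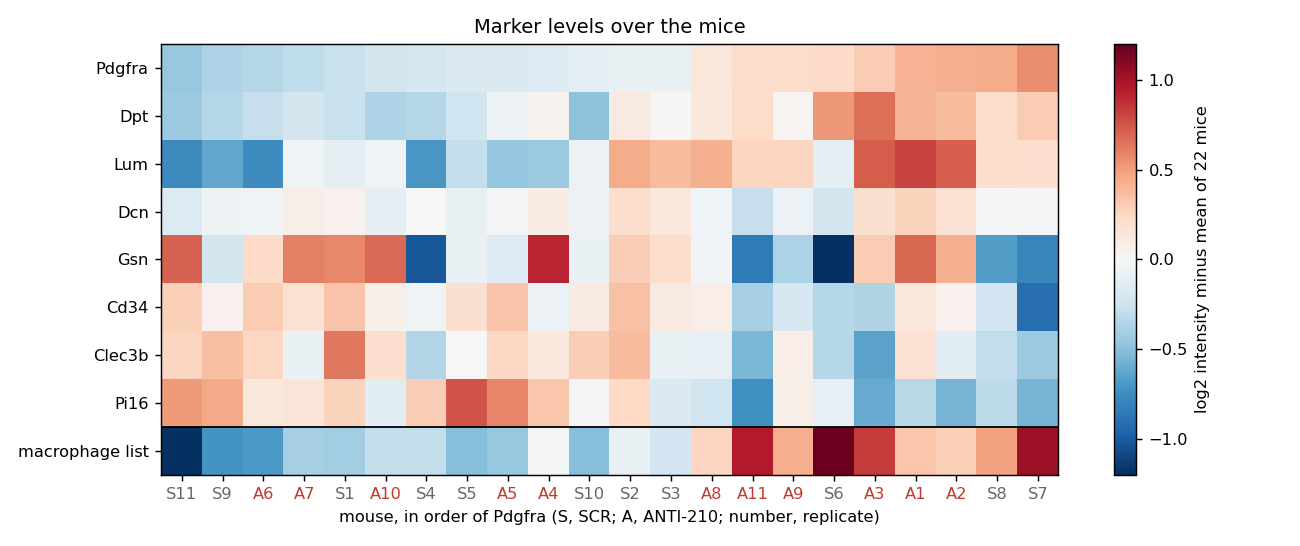
Log2 intensity minus the mean of the 22 mice (color) for each marker and for the macrophage list (rows), with the mice in order of Pdgfra (columns, S for SCR and A for ANTI-210, with the replicate number). Dpt, Lum and the macrophage list are mostly blue at the left and red at the right, and Cd34, Clec3b and Pi16 mostly the reverse.

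Correlations of this size were common in these muscles. Of 8820 other genes with a mean of 6 or more, 56.6% had an r with Pdgfra of at least 0.610 in size, the smallest among the 5 markers that passed, 28.5% with a positive and 28.1% with a negative sign. Whether the markers differ from other genes in this was not tested.

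These relations did not rest on the 2 mice farthest from the median of Pdgfra, SCR replicates 7 and 8. Without them r was 0.866 for Dpt, 0.831 for Lum, -0.760 for Pi16, -0.582 for Cd34 and -0.530 for Clec3b. The signs were the same in both sets of numbers, although Cd34 (exact p = 0.192) and Clec3b (exact p = 0.206) did not pass in the 6 mice of numbers 1 to 3. Within numbers 4 to 11 r was 0.827 for Dpt, 0.790 for Lum, -0.740 for Pi16, -0.839 for Cd34 and -0.709 for Clec3b, and within numbers 1 to 3 it was 0.884, 0.919, -0.877, -0.610 and -0.608 in the same order. Within SCR mice r was 0.816, 0.626, -0.847, -0.832 and -0.697, and within ANTI-210 mice 0.877, 0.907, -0.727, -0.525 and -0.480.

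Pdgfra itself was spread unevenly over the mice. Its widest gap, 0.22 of a range of 1.01, lay between 10.85 and 11.07, with 13 mice below it and 9 above it, of which 3 were SCR and 6 ANTI-210. Within the 13 lower mice r was 0.551 for Dpt, 0.695 for Lum, -0.300 for Pi16, -0.164 for Cd34 and -0.172 for Clec3b. Within the 9 upper mice it was 0.235, 0.226, -0.358, -0.330 and -0.027. The signs were the same on both sides, and on each side r was closer to 0 than over all mice for all 5 genes. The mice were split on Pdgfra itself, so each side spans a narrower range of it. That alone can lower r, so the lower r cannot be read as a weaker relation.

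All 28 pairs of the 8 markers were then compared, a choice made after the values had been seen. After adjustment over the 28, Pearson's r was positive in 10 pairs with p under 0.05, negative in 7 and not past in 11. The smallest r among these 17 was 0.510 in size, and 48.0% of all pairs of the 8828 genes with a mean of 6 or more reached it. Cd34 and Clec3b were a close pair (r = 0.771, adjusted p = 1.4e-04), and each went with Pi16 (r = 0.638, adjusted p = 0.00317 for Cd34 and r = 0.632, adjusted p = 0.0049 for Clec3b). Dpt and Lum went together (r = 0.728, adjusted p = 8e-04). The 3 genes Pdgfra, Dpt and Lum thus stood against Cd34, Clec3b and Pi16 over all mice. However, r of Lum with Cd34 (-0.296, adjusted p = 0.244) and with Clec3b (-0.342, adjusted p = 0.175) did not pass. Below and above the gap in Pdgfra, r was 0.139 and 0.523 for Lum with Cd34 and 0.092 and 0.266 for Lum with Clec3b. For Dpt it was 0.125 and -0.122 with Cd34, 0.027 and -0.373 with Pi16, and -0.051 and -0.456 with Clec3b. Lum with Pi16 stayed negative (-0.519 and -0.378).

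By its brightest probe, Dcn did not pass with any of these 6 genes but Lum. It went with Lum, its neighbor on the chromosome (r = 0.510, adjusted p = 0.0237), but r was -0.145 within numbers 4 to 11 and 0.867 within numbers 1 to 3. Gsn went with Cd34 (r = 0.587, adjusted p = 0.00844), Clec3b (r = 0.555, adjusted p = 0.0145) and Dcn (r = 0.530, adjusted p = 0.0198). By Spearman's rho the last 2 did not pass (adjusted p = 0.0653 and 0.0944), and the pairs named above as past did.

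**Figure D4:**
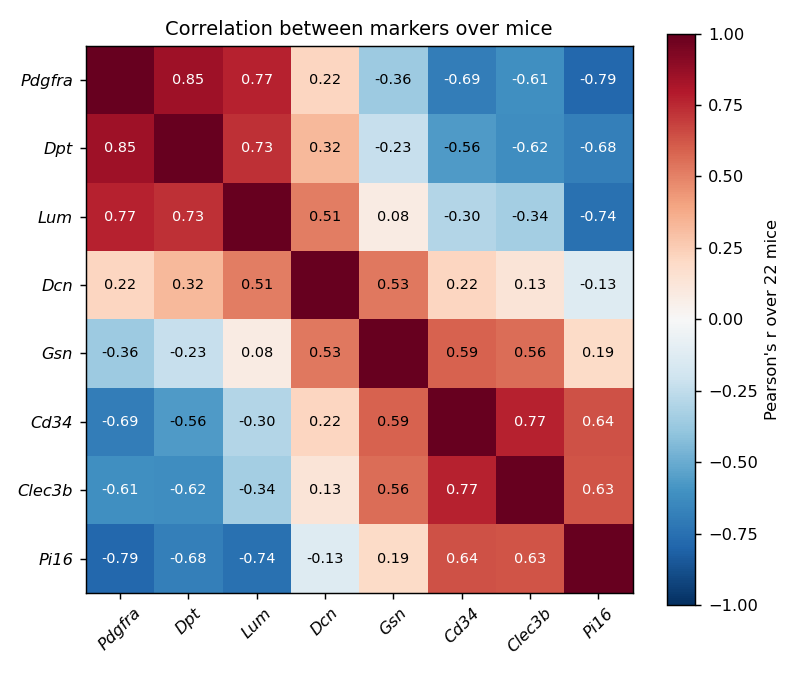
Pearson's r over 22 mice (color and number) for each pair of the 8 markers. Pdgfra, Dpt and Lum are positive with each other (0.73 to 0.85) and negative with Cd34, Clec3b and Pi16 (-0.79 to -0.30), which are positive with each other (0.63 to 0.77).

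Other genes and cell types varied with Pdgfra over the same mice. The means of 12 other lists were set against it, with p adjusted over the 12. The mean of 36 other fibroblast and progenitor genes followed it (r = 0.889, permutation p = 1e-05, the smallest possible, adjusted p = 4e-05, rho = 0.866, p = 1e-05, adjusted p = 6e-05). So did the mean of the macrophage list (r = 0.874, p = 1e-05, adjusted p = 4e-05, rho = 0.882, p = 1e-05, adjusted p = 6e-05) and of 9 genes of satellite cells and regenerating fibers (r = 0.869, p = 1e-05, adjusted p = 4e-05, rho = 0.800, p = 2e-05, adjusted p = 8e-05).

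Pdgfra was higher in the muscles where the means of the macrophage list and of the satellite cell and regenerating fiber list were also higher. In the latter list Pax7 and Myf5 were near the floor. Its genes did not all follow Pdgfra, with r at 0.862 for Myog, 0.163 for Chodl and 0.252 for Myf5. For the means of the fibroblast, macrophage and regenerating fiber lists, r was 0.907, 0.903 and 0.911 within numbers 4 to 11. Within numbers 1 to 3 it was 0.859, 0.826 and 0.847. Without SCR replicates 7 and 8 r was 0.872, 0.857 and 0.833. Among the 9 mice above the gap r was 0.146, 0.004 and 0.002, and among the 13 below it 0.697, 0.795 and 0.539.

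The mean of mature fast-fiber genes, which encode the contractile and metabolic proteins of the main fiber type of this muscle, was lower where Pdgfra was higher (r = -0.530, p = 0.0111, adjusted p = 0.0148, rho = -0.636, p = 0.00168, adjusted p = 0.00252). The lists of PDGF ligands and receptors (r = 0.761, adjusted p = 6e-05), tendon genes (r = 0.725, adjusted p = 3.84e-04), other small leucine-rich proteoglycans (r = 0.715, adjusted p = 4.8e-04), signals exchanged with progenitors (r = 0.675, adjusted p = 9.77e-04) and smooth muscle (r = 0.563, adjusted p = 0.00906) were positive, and for these 5 rho passed too (adjusted p from 2.4e-04 to 0.0303). Below and above the gap in Pdgfra, r was 0.392 and -0.046 for the PDGF list and 0.052 and 0.156 for tendon genes. It was -0.032 and 0.055 for the proteoglycans, 0.478 and 0.010 for the signals and -0.101 and 0.253 for smooth muscle. For the fast-fiber list it was -0.388 and 0.097. A list mean did not speak for each gene: among tendon genes r was 0.665 for Comp, 0.067 for Cilp2 and -0.114 for Chad. The adipogenic list (r = 0.347, adjusted p = 0.138), the Schwann cell list (r = -0.235, adjusted p = 0.322) and the endothelial list (r = -0.108, adjusted p = 0.631) did not pass. For the Schwann and endothelial lists the sets disagreed, at -0.802 and -0.552 within numbers 4 to 11 and 0.959 and 0.841 within numbers 1 to 3. The adipogenic list was at 0.048 within numbers 4 to 11 and 0.812 within numbers 1 to 3. By treatment it was at -0.141 in SCR mice and 0.760 in ANTI-210 mice.

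**Figure D5:**
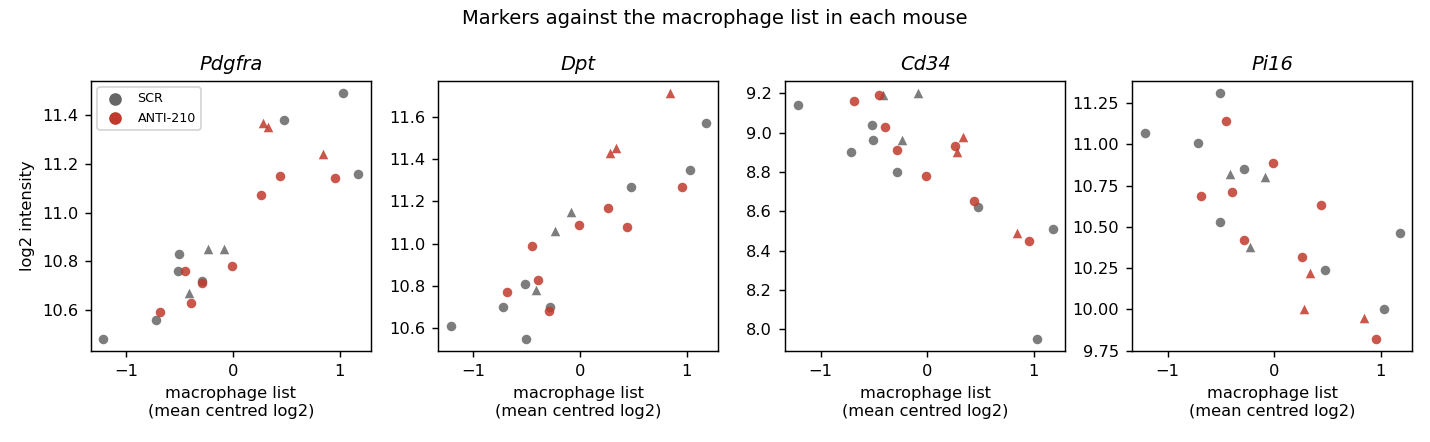
Log2 intensity of 4 markers (vertical axis) against the mean of the macrophage list, centered on the mean of all mice (horizontal axis), in SCR (gray) and ANTI-210 (red) mice, with triangles for replicate numbers 1 to 3 and circles for 4 to 11. Pdgfra and Dpt increase from left to right (r = 0.874 and 0.870) and Cd34 and Pi16 decrease (r = -0.808 and -0.764).

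The 7 markers beside Pdgfra were also set against the macrophage list, again after the values had been seen. Dpt (r = 0.870, adjusted p = 3.5e-05 over 7 relations) and Lum (r = 0.642, adjusted p = 0.00209) were higher where the list was higher. Cd34 (r = -0.808, adjusted p = 3.5e-05), Pi16 (r = -0.764, adjusted p = 9.33e-05) and Clec3b (r = -0.725, adjusted p = 3.15e-04) were lower there. For Gsn r was -0.510 (adjusted p = 0.0177), but it was -0.286 without SCR replicates 6 and 7 and its rho of -0.344 did not pass (adjusted p = 0.135), and for Dcn r was 0.004 (adjusted p = 0.985). For the 5 genes that passed on both measures the sign was the same within each set of numbers and within each treatment. Below and above the gap in Pdgfra the sign also held for Dpt, Cd34, Pi16 and Clec3b. It turned for Lum, at 0.594 below and -0.599 above, and Dcn was at 0.742 below and -0.545 above.

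The genes whose pattern over the 22 mice was most like that of Pdgfra, among 8820 genes with a mean of 6 or more, were 6330403K07Rik (r = 0.931), Bex2 (0.927), Gpr65 (0.925), Antxr1 (0.925) and Sdc2 (0.923). None of the 5 passed the test between the treatments. The mean of the 8 centered markers was most like Wnk1 (r = 0.869), Casq1 (0.857), Ntrk2 (0.853), Ranbp9 (0.826) and Slc35a1 (0.825). Pi16, chosen for this search after its values had been seen, was most like Pou4f1 (r = 0.925), Mars1 (0.922), Ogfod2 (0.914), Tnfrsf19 (0.912) and Ergic2 (0.911).

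The remaining genes of the fibroblast program gave the setting for the marker result between treatments. Of the 36 other fibroblast and progenitor genes measured, 1 was higher with ANTI-210 and none lower, where 1.45% and 2.01% of all genes were. With array weights 8 of the 36 passed, against 10.4% of all genes. The gene called higher was Igfbp6, which encodes an IGF-binding protein, by 0.19 ± 0.09 (SE, n = 11 per group, limma p = 0.0423, adjusted p = 1). Igfbp6 was higher by 0.26 in numbers 4 to 11, while its group means were equal in numbers 1 to 3. It passed in 8 of the 22 fits that left out a mouse. None of 11 adipogenic genes passed, with Adipoq, the adipocyte hormone adiponectin, at 0.30 (p = 0.245), and none of 17 signals passed. Near the floor were 3 of these adipogenic genes and 7 of the 36 fibroblast genes. So were 7 of the signals, namely Tnf, Il4, Il4ra, Il13, Il6, Bmp7 and Ccl2, which limits these counts. Of the lists for other cells, none of 9 satellite cell and regenerating fiber genes, 9 smooth muscle and pericyte genes or 4 Schwann cell genes passed, and 1 of 10 mature fast-fiber genes was higher (Eno3, the muscle enolase, by 0.08).

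Some relatives of Lum and Dcn passed the unadjusted threshold. Of 9 other small leucine-rich proteoglycans, 3 were higher with ANTI-210 and none lower, against 1.45% and 2.01% of all genes, namely Fmod (fibromodulin, 0.82 ± 0.16), Kera (keratocan, 0.61 ± 0.16) and Prelp (0.25 ± 0.08), each with n = 11 per group and past the threshold in all 22 fits that left out a mouse. Their adjusted p was 0.276 for Fmod and 1 for Kera and Prelp. Fmod differed by 1.40 in numbers 1 to 3 and 0.60 in numbers 4 to 11, Kera by 0.81 and 0.54, and Prelp by 0.16 and 0.28. Kera is the other neighbor of Lum on chromosome 10, and Lum itself was not called. Of 8 tendon genes 3 were higher, Chad (1.17, adjusted p = 0.264), Comp (0.59, adjusted p = 1) and Cilp2 (0.57, adjusted p = 0.0122), the last near the floor. Comp differed by 1.37 in numbers 1 to 3 and 0.30 in numbers 4 to 11, Chad by 1.14 and 1.18, and Cilp2 by 0.74 and 0.51. All gene lists, the proteoglycan and tendon lists among them, were drawn up with earlier results of these data known, so their counts are no independent evidence of direction.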

How the data were processed

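Gene expression was measured in total RNA (200 ng per sample) of ischemic gastrocnemius from 22 mice, 11 per group, on Illumina MouseWG-6 v2 bead arrays, 1 array per mouse. The deposited log2 intensities were made by the authors from GenomeStudio bead summaries, which they brought to common quantiles. The paper also describes a filter on the expression and quality of probes (beadarray). It does not say whether the deposited values had passed that filter, and 62.6% of their 38563 probes had a mean under 6. Versions and filter limits were not given in the sources used here, and the base of the logarithm was taken from the range of the values. The depth of an array is not a read count, and the number of arrays limits the precision. Quantile normalization makes the distribution of values nearly equal on all arrays, so a shift common to most genes would not be seen.

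Probes were named from the platform annotation: 32093 of 38563 probes had 1 gene symbol, 16 had several and 6454 had none. No column of values was left unassigned. ANTI-210 was compared with SCR by limma 3.58.1 (lmFit and eBayes, R 4.3.3) over all probes, two-sided, with an unadjusted p under 0.05 and Benjamini-Hochberg adjustment over all probes. The 95% intervals are those of that fit. Single differences within replicate sets were tested by exact permutation of the treatment labels. Correlations over mice used 100000 permutations (all permutations for fewer than 10 mice). The 7 relations with Pdgfra are 1 fewer than planned, since Ly6a had no named probe. Fits and searches were tested on simulated data. The labels do not say that the mice were independent litters or cages, so the p-values measure the spread between these mice. Same-numbered mice were checked for pairing: the correlation of their deviations from the group means ran from -0.664 to 0.641 over the 11 numbers, and the numbers were not taken as pairs.

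The named genes were all markers with every probe, up to 3 genes of each other list by p plus every gene past the threshold, and the 5 genes most like Pdgfra and most like the markers' mean. Pi16 as a further search target, all pairs of markers, markers against macrophages, further probes, the split at the widest gap, limma within the sets and the shares of all genes with such correlations were added after seeing the data. Members and lists were chosen with earlier results of these data known. Alternatives were other normalizations, a filter on dim probes, a trended robust variance, array weights, the methods' t-test, the replicate number as a block, the replicate set as a term, the mean of all probes, each set alone, and each mouse left out. Promoter and microRNA sequences are those of RefSeq on GRCm38.p6, and the array files name no genome build.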

Additional observations from a re-analysis of the deposited data

How the results depend on the processing

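None of the 8 markers passed with median centering, cyclic loess, the dim-probe filter, the trended robust variance, the methods' t-test, the replicate block (11 pairs; 641 genes past) or the replicate set as a term. With array weights 2 passed (Dpt and Pi16), with the mean of all probes 1 (Gsn), and without single mice 0 to 1 (Gsn). In numbers 1 to 3 the exact test could call none and the limma fit called 4 (Pdgfra, Dpt, Lum and Pi16). Over all genes, 642 passed, against 1920 with array weights, 6420 in numbers 1 to 3 by limma and 520 to 873 without single mice. With the dim-probe filter 282 passed, out of fewer genes, since only probes with a mean at or above the median of all probes were kept. Signs turned for Pdgfra (-0.069 in numbers 4 to 11), Clec3b (0.089 in numbers 4 to 11) and Cd34 (-0.054 with array weights, -0.33 in numbers 1 to 3, and -0.071 to 0.059 over the fits without single mice, below 0 without SCR replicates 6, 7 or 8 or ANTI-210 replicates 5 or 6, where it was -0.015, -0.071, -0.0041, -0.015 and -0.012).

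Of the correlations with Pdgfra, those no longer past were Cd34 (-0.525 in ANTI-210, -0.610 in numbers 1 to 3, -0.164 below and -0.330 above the gap), Clec3b (-0.480, -0.608, -0.172 and -0.027), Dpt (0.551 below, 0.235 above), Pi16 (-0.300, -0.358) and Lum (0.226 above). Gsn passed in SCR (-0.623) and numbers 4 to 11 (-0.637) and turned in numbers 1 to 3 (0.240) and above the gap (0.172). Dcn turned in numbers 4 to 11 (-0.138) and passed below the gap (0.567). The causes were not tested, and each side of the gap spans a narrower range of Pdgfra, which alone can lower r. Signals near the floor limit the second probes of Pdgfra and Gsn, and with 3 mice against 3 no exact test can pass.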
